A study of Mus musculus with 6 samples.

Results

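Astrocyte identity and homeostasis genes are genes by which astrocytes are recognised in cortex, or by which they carry out their housekeeping of the extracellular space. The 33 genes described here were given by name and not by a threshold on any measured value, though with earlier results of these data known, and all 33 were found among the 14824 genes of the table. They were followed in bulk RNA-seq of the primary somatosensory (S1) cortex, the area that receives input from the whiskers, in WT mice of strain C57B6 at postnatal day 21. The study compared 3 libraries from cortex of mice given daily whisker stimulation (WS), taken 90 minutes after stimulation ended, with 3 libraries from non-stimulated cortex (NS, labelled as control with no treatment), in a study of neural activity and blood vessel formation. WS and NS share genotype, strain, age and tissue. The study describes its NS control as the barrel cortex of the other, unstimulated side, but the labels do not say which NS and WS libraries share an animal, so p-values measure the spread between these libraries.

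Astrocytes clear glutamate and potassium from the space around synapses, move water at the endfeet that wrap blood vessels, and return glutamine to neurons. Several of their transporters and channels sit together in the endfoot membrane, while other products, such as apolipoprotein-like carriers and opsonins, are secreted. In S1 cortex they lie between the neurons driven by the whiskers and the vessels that supply them. In bulk tissue, fewer astrocytes and less RNA per astrocyte cannot be told apart.

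All 33 genes passed the filter on low counts, with means from 162 to 44084 counts per library, so none was lost to low expression. CPM is the count scaled to a fixed library size after normalisation. Per kilobase of the longest coding transcript, Glul stood highest, with a mean level of 669 CPM per kb over the 6 libraries, followed by Clu at 572 CPM per kb and Aldoc at 362 CPM per kb. Slc14a1 had the lowest level at 2.74 CPM per kb, below Etnppl at 3.18 CPM per kb. The defining markers of astrocytes were present, with Gfap at 52.5, S100b at 79.7, Slc1a3 at 132 and Aldh1l1 at 18.1 CPM per kb. The library totals lay between 15660395 and 17276168 counts, and the labels accept any RNA integrity number above 2. WS replicate 2 held more of a list of 9 striatal genes, which include Drd2 and Adora2a and were listed after the values had been seen, with a summed level of 741 CPM against 348 to 494 CPM in the other 5 libraries. WS replicates 1 and 3 tilted with the GC content of transcripts in opposite directions, as described below. The counts of the 33 genes made up 1.14%, 1.14% and 1.09% of all counts in NS replicates 1, 2 and 3, and 1.19%, 1.11% and 1.31% in WS replicates 1, 2 and 3. The share in WS replicate 2 thus fell inside the NS range, and the shares in WS replicates 1 and 3 lay above it.

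No astrocyte gene passed the test for a difference between WS and NS. In edgeR's quasi-likelihood test of 13747 genes, with p adjusted over all of them after Benjamini and Hochberg, 0 of the 33 had an adjusted p under 0.05, against 0.0364% of all genes tested. The lowest adjusted p among the 33 was 0.9998. At an unadjusted p under 0.05 there was 1 gene, Slc6a11, on the higher side and 0 on the lower side, against 0.866% and 0.327% of all genes tested. The fitted log2 fold change (WS over NS) lay above 0 in 33 of 33 genes, against 53.0% of all genes tested, with a median of 0.13 against 0.01. This median corresponds to a level 9.44% higher in WS. The genes share the same 6 libraries, so their common sign is not 33 separate observations. The range ran from 0.04 for Slc1a3 to 0.43 for Etnppl, none reached a log2 fold change of 1, and only 4 exceeded 0.2. For 8 genes the difference was smaller than its own standard error (SE), and for 2 genes it exceeded 2 SE.

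The common sign rested on WS replicates 1 and 3. Relative to the NS mean, the median log2 ratio of the 33 genes was -0.01, 0.02 and -0.03 in NS replicates 1, 2 and 3. It was 0.17 in WS replicate 1, 0.00 in WS replicate 2 and 0.19 in WS replicate 3. In WS replicate 2, 25 genes lay inside the range of the 3 NS libraries, 5 above it and 3 below it, while 22.1% of all genes tested lay above it. In WS replicate 3, 29 genes lay above all NS libraries and 0 below, while 30.1% of all genes tested lay above them. In WS replicate 1, 21 genes lay above all NS libraries, against 32.0% of all genes tested, and 4 lay below. The library with the highest value was WS replicate 1 for 17 genes, WS replicate 3 for 15 and WS replicate 2 for 1, and it was never an NS library. Over all genes tested, WS replicate 1 was highest for 26.4% and WS replicate 3 for 24.0%.

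**Figure D1:**
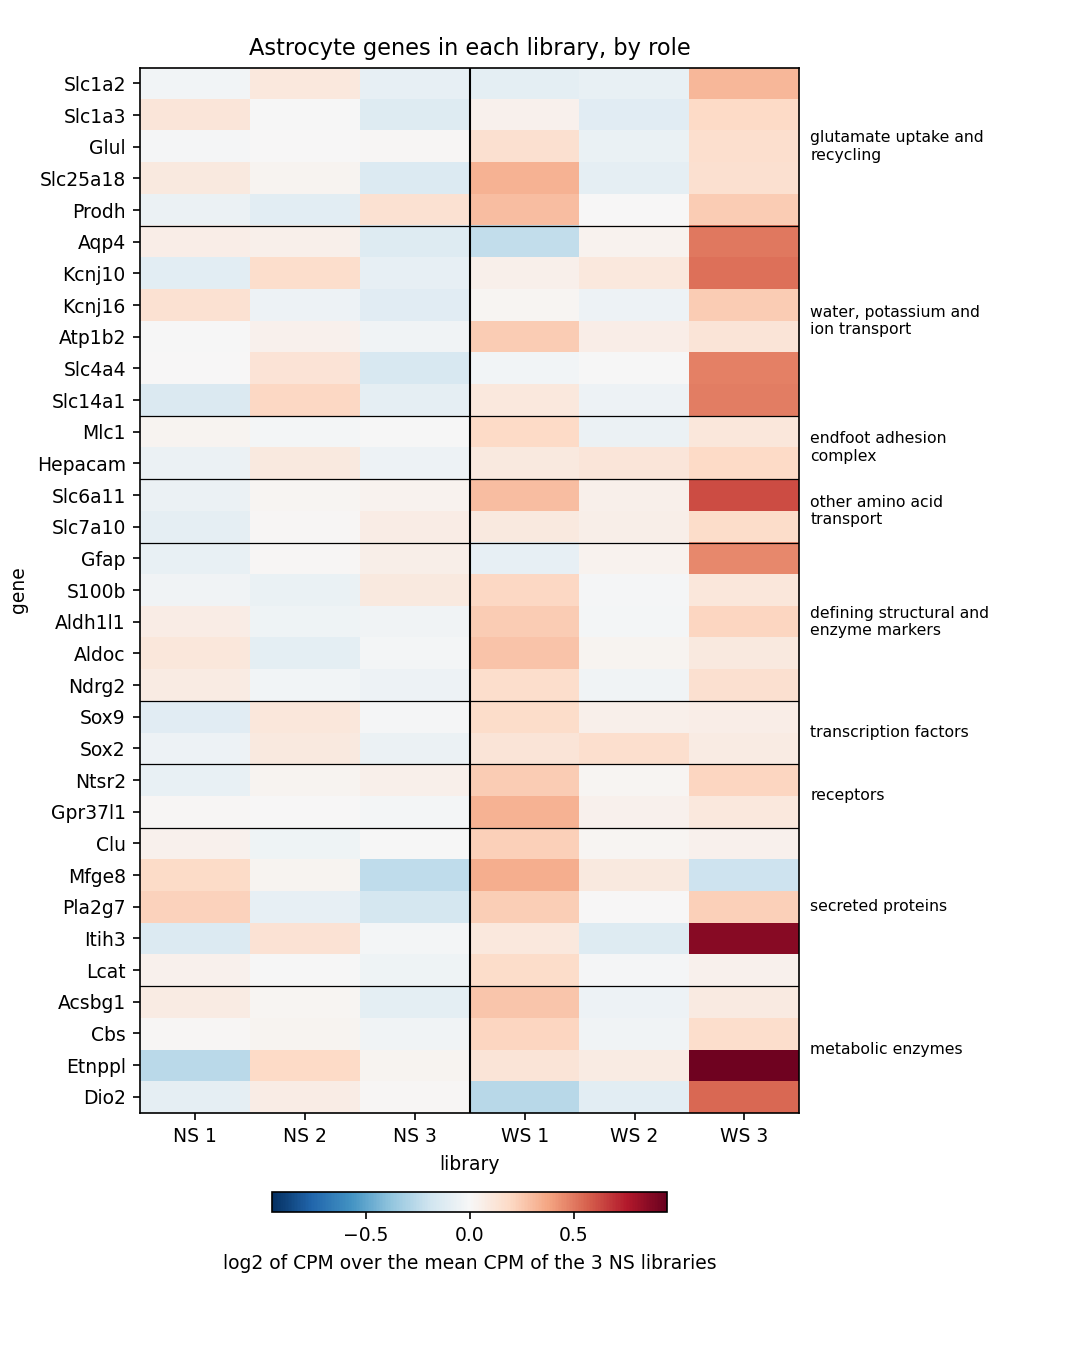
Heat map of the log2 ratio of each library's CPM to the mean CPM of the 3 NS libraries, with 1 row per astrocyte gene ordered by role and 1 column per library. WS replicates 1 and 3 are mostly red, with medians of 0.17 and 0.19, WS replicate 2 is close to white, with a median of 0.00, and the strongest single values are Etnppl and Itih3 in WS replicate 3.

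In 3 of the 33 genes, namely Slc6a11, Atp1b2 and Gpr37l1, all WS values lay above all NS values, which is 9.09% of the list against 3.11% of all genes tested. The reverse order was seen in 0 of the 33 genes, against 3.16% of all genes tested. Within libraries of the same replicate number, WS exceeded NS in 26 genes for number 1, in 15 genes for number 2 and in 33 genes for number 3, against 51.3%, 50.1% and 50.1% of all genes tested. In 13 of the 33 genes WS was higher in all 3 pairs, against 9.82% of all genes tested. Fitted with a block for the replicate number, 3 of the 33 had an unadjusted p under 0.05 by edgeR's quasi-likelihood test (Slc6a11, Etnppl and Kcnj10), against 1.38% of all genes tested on the higher side. In that fit 0 of the 33 passed the adjusted threshold, against 0.0800% of all genes tested. By DESeq2 the same 3 genes had an unadjusted p under 0.05, against 0.479% of all genes tested on the higher side.

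The values without WS replicate 3 separated the genes further. Leaving it out, 25 of the 33 genes kept a log2 fold change above 0, against 51.2% of all genes tested, and the median was 0.10. The 8 genes then below 0 were Slc1a2, Slc1a3, Aqp4, Kcnj16, Slc4a4, Gfap, Itih3 and Dio2. Gpr37l1 alone then had an unadjusted p under 0.05 by edgeR's quasi-likelihood test, against 2.30% of all genes tested on the higher side. Without WS replicate 1, 32 of 33 genes stayed above 0, against 51.8% of all genes tested, with a median of 0.10, and Mfge8 was the exception. Then 5 genes had an unadjusted p under 0.05 by edgeR's quasi-likelihood test (Aqp4, Kcnj10, Slc6a11, Gfap and Etnppl), against 2.27% of all genes tested on the higher side. Without WS replicate 2, whose astrocyte values lay among the NS libraries, the median was 0.17 and 6 genes had such a p (Prodh, Kcnj10, Slc6a11, Ntsr2, Itih3 and Etnppl), against 0.866% of all genes tested on the higher side.

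**Figure D2:**
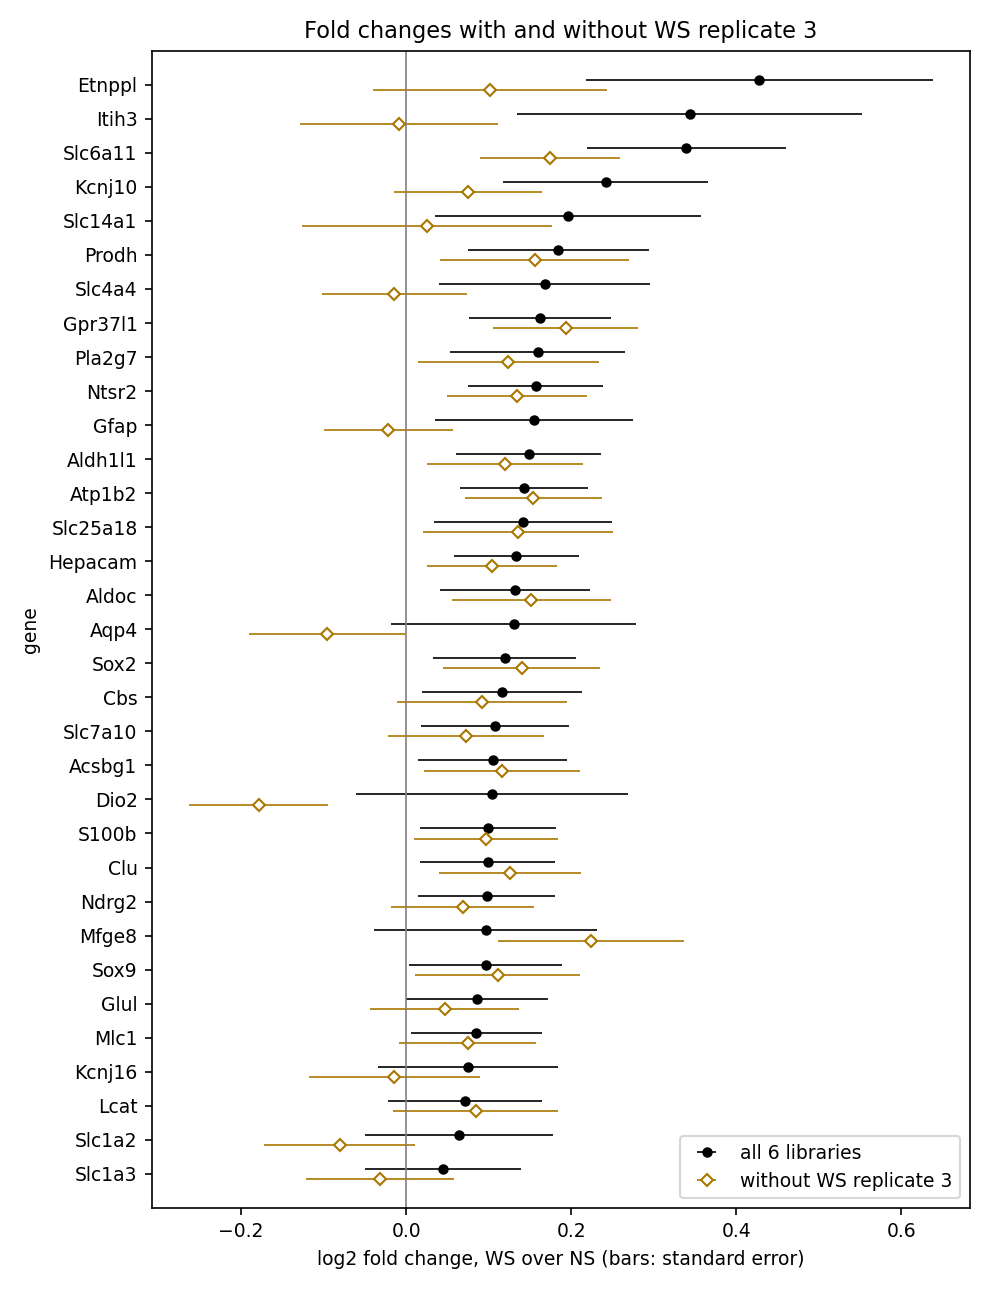
Log2 fold change of WS over NS for each of the 33 astrocyte genes, with bars for the SE, from all 6 libraries (filled circles) and without WS replicate 3 (open diamonds), ordered by the first. All 33 circles lie above 0, between 0.04 and 0.43, and 8 diamonds lie below 0, the lowest being Dio2 at -0.18.

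The genes of glutamate handling included the 2 lowest fold changes of the list, those of the abundant transporters Slc1a2 and Slc1a3. Slc1a2, the main glutamate transporter of forebrain astrocytes, measured 2631, 2862 and 2528 CPM in NS and 2506, 2551 and 3327 CPM in WS. WS replicate 1 lay below all NS values, WS replicate 2 within their range and WS replicate 3 above it, and the log2 fold change was 0.06 (SE 0.11). Slc1a3, the glutamate transporter also known as GLAST, measured 585, 540 and 495 CPM in NS and 557, 500 and 614 CPM in WS, with overlapping groups and a log2 fold change of 0.04 (SE 0.09). Glul encodes glutamine synthetase, which turns the glutamate taken up into glutamine. It had a mean of 1813 ± 14.7 CPM (SD) in NS and 1924 ± 165 CPM in WS, and WS replicate 2 at 1733 CPM was its lowest library. Slc25a18, a mitochondrial glutamate carrier, and Prodh, which starts the breakdown of proline, had log2 fold changes of 0.14 (SE 0.11) and 0.18 (SE 0.11). Both were highest in WS replicate 1, at 92.3 and 36.1 CPM. By edgeR's quasi-likelihood test 0 of these 5 genes had an unadjusted p under 0.05. Over all genes tested the share was 0.866% on the higher side and 0.327% on the lower. The median log2 fold change of the 5 genes was 0.09 with all libraries and 0.05 without WS replicate 3.

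Among the genes of water, potassium and ion transport, 4 of 6 were over 1.2 times higher in WS replicate 3 than in any other library. Kcnj10, the inward-rectifier potassium channel that carries potassium buffering, measured 277, 334 and 281 CPM in NS and 308, 319 and 429 CPM in WS. The first 2 WS values lay inside the NS range and the third stood 1.28 times above the highest other library. Its log2 fold change was 0.24 (SE 0.12, unadjusted p = 0.0756 by edgeR's quasi-likelihood test), and 0.07 (SE 0.09) without WS replicate 3. Aqp4, the water channel of the endfoot, measured 120, 119 and 106 CPM in NS. In WS it measured 97.9, 118 and 163 CPM, which put the lowest and the highest of the 6 libraries in the same group. Its log2 fold change of 0.13 (SE 0.15) therefore became -0.10 (SE 0.09) without WS replicate 3. Slc4a4, a sodium bicarbonate cotransporter, had only WS replicate 3 above the NS range, with 126, 137 and 113 CPM in NS against 123, 125 and 174 CPM in WS. Slc14a1, a urea transporter, was the member with the fewest counts and measured 8.51, 10.7 and 8.82 CPM in NS against 10.01, 9.03 and 13.1 CPM in WS. Kcnj16, which forms channels together with Kcnj10, had a smaller log2 fold change of 0.07 (SE 0.11), with overlapping groups. Atp1b2 stood apart from these. It encodes the glial beta subunit of the sodium-potassium pump and measured 797, 822 and 781 CPM in NS and 944, 836 and 870 CPM in WS. All WS values of Atp1b2 lay above all NS values, its log2 fold change was 0.14 (SE 0.08), and it was 0.15 (SE 0.08) without WS replicate 3, so its direction did not rest on that library. Its groups were separated by little, the lowest WS value being 836 and the highest NS value 822 CPM.

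Mlc1 and Hepacam encode partner proteins that hold astrocyte endfeet together. Mlc1 had a mean of 169 ± 2.46 CPM (SD) in NS and 179 ± 15.1 CPM in WS, and its lowest library was WS replicate 2. Hepacam measured 111, 124 and 112 CPM in NS and 124, 125 and 132 CPM in WS. WS replicate 1 and NS replicate 2 overlapped at almost the same level, and the log2 fold change of Hepacam was 0.13 (SE 0.08). Without WS replicate 3 both kept log2 fold changes above 0, with a median of 0.09.

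Slc6a11 had the smallest p of the list. It encodes the GABA transporter of astrocyte processes and lies at chr6:114131241-114249952 on the plus strand of GRCm38. Slc6a11 measured 162, 171 and 173 CPM in NS and 206, 174 and 260 CPM in WS. All WS values lay above all NS values, though WS replicate 2 exceeded the highest NS library by less than the spread among the NS libraries. Its log2 fold change was 0.34 (SE 0.12), corresponding to a level 26.5% higher, with an unadjusted p of 0.0159 and an adjusted p of 0.9998 by edgeR's quasi-likelihood test. With the block for the replicate number its unadjusted p in the same test was 0.00505, and without WS replicate 3 the log2 fold change was 0.17 (SE 0.08). Slc7a10, a transporter of small neutral amino acids such as serine and glycine, measured 37.4, 39.9 and 41.7 CPM in NS and 42.2, 41.2 and 44.8 CPM in WS. WS replicate 2 of Slc7a10 lay within the NS range, and the log2 fold change was 0.11 (SE 0.09).

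**Figure D3:**
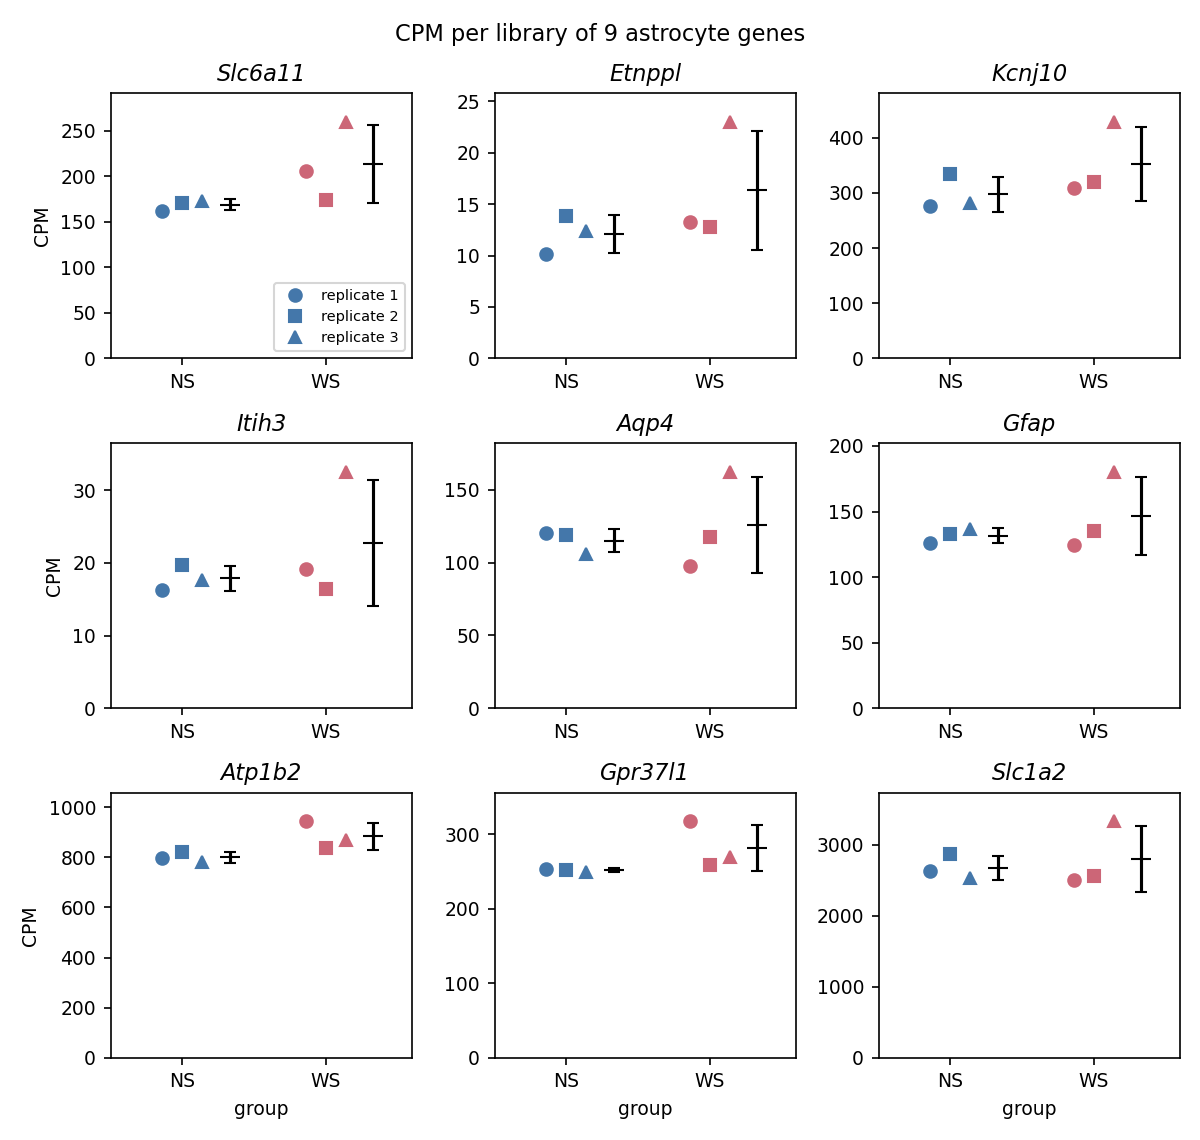
CPM of 9 astrocyte genes in each library, with NS in blue and WS in red, symbols for the replicate number, and the mean with its SD in black for each group of 3; every axis starts at 0. WS replicate 3 (triangle) is the highest library for Slc6a11, Etnppl, Kcnj10, Itih3, Aqp4, Gfap and Slc1a2, and WS replicate 1 (circle) for Atp1b2 and Gpr37l1.

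Among the classical markers, Gfap was highest in WS replicate 3 and the others in WS replicate 1. Gfap, the intermediate filament of astrocytes, measured 126, 133 and 137 CPM in NS and 125, 135 and 180 CPM in WS. Its WS values thus included the lowest and the highest library, and the log2 fold change was 0.16 (SE 0.12) with all libraries and -0.02 (SE 0.08) without WS replicate 3. S100b, a calcium-binding protein, measured 112, 109 and 122 CPM in NS and 131, 113 and 123 CPM in WS. Aldh1l1, a folate enzyme used as a pan-astrocyte marker, measured 75.1, 69.7 and 70.1 CPM in NS and 84.8, 70.9 and 82.5 CPM in WS. Aldoc, the brain form of the glycolytic enzyme aldolase, had a mean of 962 ± 69.8 CPM (SD) in NS and 1054 ± 95.1 CPM in WS. Ndrg2, a cytoplasmic protein abundant in astrocytes, had a mean of 730 ± 34.2 CPM in NS and 781 ± 59.7 CPM in WS. In S100b, Aldh1l1, Aldoc and Ndrg2 the groups overlapped, and their log2 fold changes lay between 0.10 and 0.15. In 7 of the 33 genes (Aldh1l1, Dio2, Glul, Pla2g7, Slc1a2, Slc25a18 and Slc7a10) an exon overlaps that of another annotated gene, so some of their reads may belong to that gene.

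Of the transcription factors and receptors, only Gpr37l1 had separated groups. Sox9, which marks astrocyte nuclei in the mature brain, had a mean of 40.7 ± 2.97 CPM (SD) in NS and 43.5 ± 2.03 CPM in WS. Sox2, also expressed by neural progenitors, had a mean of 43.3 ± 2.57 CPM in NS and 47.1 ± 1.32 CPM in WS, and was the only gene of the list with its highest value in WS replicate 2. Ntsr2, a neurotensin receptor, had a log2 fold change of 0.16 (SE 0.08, unadjusted p = 0.0789 by edgeR's quasi-likelihood test). Its values were 128, 137 and 139 CPM in NS and 159, 136 and 155 CPM in WS, with WS replicate 2 among the NS libraries. Gpr37l1, a G protein-coupled receptor of astrocytes, measured 254, 253 and 249 CPM in NS and 318, 259 and 270 CPM in WS. The NS values of Gpr37l1 were within 5 CPM of each other and all WS values lay above them, with a log2 fold change of 0.16 (SE 0.09) with all libraries and 0.19 (SE 0.09) without WS replicate 3.

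Among the genes of secreted proteins, Itih3 and Mfge8 varied most between libraries and neither had separated groups. Clu, the chaperone clusterin, had a mean of 999 ± 27.6 CPM (SD) in NS and 1070 ± 83.6 CPM in WS, with a log2 fold change of 0.10 (SE 0.08). Lcat, which esterifies cholesterol on lipoproteins, had means of 28.7 ± 0.745 CPM in NS and 30.1 ± 2.07 CPM in WS. Itih3, a heavy chain of the inter-alpha-trypsin inhibitors, measured 16.3, 19.7 and 17.6 CPM in NS and 19.1, 16.4 and 32.6 CPM in WS. The first 2 WS values of Itih3 lay within the NS range and the third was 1.66 times the highest other library. Its log2 fold change of 0.34 (SE 0.21) was -0.01 (SE 0.12) without WS replicate 3. Mfge8, an opsonin that binds phosphatidylserine, went the other way and was low in both libraries numbered 3, with 248, 223 and 185 CPM in NS and 278, 233 and 190 CPM in WS. Its log2 fold change was 0.10 (SE 0.14), 0.22 (SE 0.11) without WS replicate 3 and -0.05 without WS replicate 1. Pla2g7, a secreted phospholipase that inactivates platelet-activating factor, had means of 125 ± 17.9 CPM in NS and 139 ± 12.4 CPM in WS, with overlapping groups.

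Of the metabolic enzymes, Etnppl had the largest fold change of the list and among the fewest counts. It encodes a phospho-lyase that breaks down phosphoethanolamine and lies at chr3:130617448-130637521 on the plus strand of GRCm38. Etnppl measured 10.2, 13.9 and 12.4 CPM in NS and 13.2, 12.8 and 22.99 CPM in WS. The first 2 WS values lay within the NS range and the third was 1.66 times the highest other library, so that the log2 fold change was 0.43 (SE 0.21, unadjusted p = 0.0648 by edgeR's quasi-likelihood test) with all libraries and 0.10 (SE 0.14) without WS replicate 3. Dio2, the enzyme by which astrocytes activate thyroid hormone, measured 113, 126 and 121 CPM in NS and 100, 112 and 175 CPM in WS. WS replicates 1 and 2 of Dio2 lay below all NS values and WS replicate 3 above them, and the log2 fold change was 0.10 (SE 0.16), or -0.18 (SE 0.08) without WS replicate 3. Acsbg1, a fatty acyl-CoA synthetase, and Cbs, which condenses homocysteine and serine, had log2 fold changes of 0.10 (SE 0.09) and 0.12 (SE 0.10), and both were highest in WS replicate 1.

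WS replicate 3 exceeded the highest of the other 5 libraries by over 1.2 times in 9 of the 33 genes, against 2.95% of all genes tested. These were Aqp4, Kcnj10, Slc4a4, Slc14a1, Slc6a11, Gfap, Itih3, Etnppl and Dio2. The members just below this ratio were Slc1a2 at 1.16 and Kcnj16 at 1.07, and just above it was Slc14a1 at 1.22. A list of 12 thalamic genes, drawn up after the values had been seen, had 10 genes tested and a summed level of 159 CPM in WS replicate 3, against 120 to 153 CPM in NS and 136 and 142 CPM in WS replicates 1 and 2. WS replicate 3 was the highest of the 6 libraries in 6 of these 10 genes and the lowest in 2. Among the 6, Tcf7l2 measured 14.02 CPM in WS replicate 3 against 6.34 to 8.20 CPM elsewhere, and Slc17a6 measured 40.7 CPM against 23.7 to 34.3 CPM. The 2 were Rgs16, at 8.08 CPM against 9.36 to 10.3 CPM elsewhere, and Prkcd, at 7.96 CPM against 8.68 to 13.9 CPM. The part of other brain regions in the values of WS replicate 3 was not tested.

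Transcript composition also moved with these values. Over all genes tested, the median log2 deviation of WS replicate 1 from the mean of the libraries ran from -0.18 in the fifth of genes with the lowest GC content to 0.17 in the fifth with the highest. In WS replicate 3 it ran the other way, from 0.12 to -0.08. Among the 33 genes, the 17 that were highest in WS replicate 1 had a median transcript GC content of 53.6%, and the 15 that were highest in WS replicate 3 had a median of 46.7%. As a description across the 33 genes, which share their libraries, Pearson's r between GC content and the log2 ratio to NS was 0.68 in WS replicate 1 and -0.46 in WS replicate 3. The 14 genes with under 50% GC had median log2 ratios of 0.07 in WS replicate 1 and 0.28 in WS replicate 3, and the 19 others had 0.24 and 0.15.

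With a smooth trend on GC content and transcript length taken out of each library, r was -0.18 and -0.17, and 33 of 33 genes still lay above a log2 fold change of 0, against 50.2% of all genes tested, with a median of 0.12. The median log2 ratio to NS was then 0.13, -0.01 and 0.23 in WS replicates 1, 2 and 3. Slc6a11, Etnppl, Kcnj10 and Atp1b2 had an unadjusted p under 0.05 in that fit by edgeR's quasi-likelihood test, against 1.37% of all genes tested on the higher side, and 0 passed the adjusted threshold, against 0.0291% of all genes tested. Together with the block for the replicate number, 7 genes had such a p (those 4, Slc4a4, Aldoc and Pla2g7), against 2.58% of all genes tested on the higher side. WS replicate 3 then exceeded the others by over 1.2 times in 7 genes, against 1.95% of all genes tested. With the trend removed, 2 genes, Slc6a11 and Atp1b2, had all WS values above all NS values, against 3.59% of all genes tested, and Gpr37l1 no longer did.

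**Figure D4:**
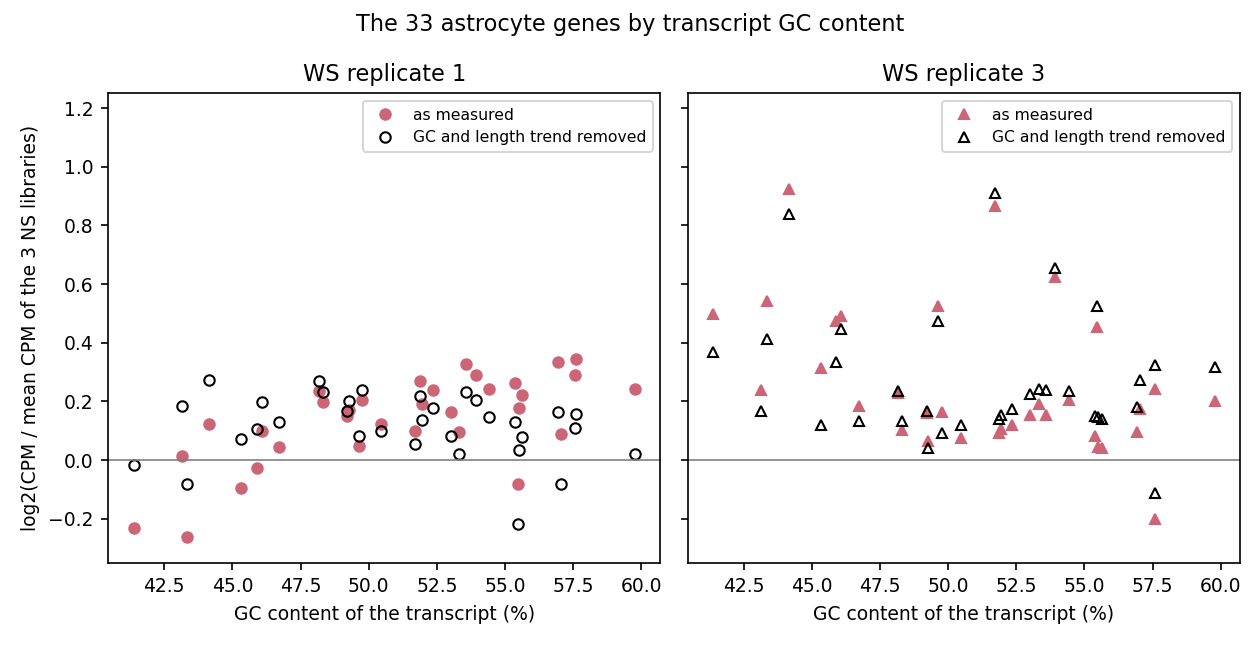
Log2 ratio of CPM to the NS mean against the GC content of the transcript for the 33 astrocyte genes, in WS replicate 1 (left) and WS replicate 3 (right), as measured (filled) and with the GC and length trend removed (open). As measured, the points climb with GC content in WS replicate 1 (r of 0.68) and descend in WS replicate 3 (r of -0.46), and with the trend removed r is -0.18 and -0.17 while most points stay above 0.

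Other astrocyte genes, in a companion list of 40, had a similar pattern with a smaller median log2 fold change. In 38 of these 40 genes the log2 fold change lay above 0, against 53.0% of all genes tested, and the median was 0.09. In 1 of them the unadjusted p was under 0.05 on the higher side by edgeR's quasi-likelihood test, against 0.866% of all genes tested. That gene was Grin2c, an NMDA receptor subunit, which measured 59.0, 55.4 and 57.0 CPM in NS and 77.2, 60.9 and 67.0 CPM in WS. The list's highest log2 fold change, 0.59 (SE 0.51), was that of the connexin gene Gja1, which was set by a single low value of 21.6 CPM in NS replicate 3 against 183 to 233 CPM in the other 5 libraries. The median log2 ratio of the 40 genes to NS was 0.10 in WS replicate 1, 0.01 in WS replicate 2 and 0.15 in WS replicate 3. Without WS replicate 3, 28 of the 40 were above 0, against 51.2% of all genes tested, with a median of 0.07.

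Genes of astrocyte reactivity gave values on both sides of 0, and several had few counts, with a mean as low as 8.67 per library. Of 25 such genes, 19 passed the filter, and 13 of these lay above a log2 fold change of 0 and 6 below, with a median of 0.11, against 53.0% above 0 among all genes tested. By edgeR's quasi-likelihood test 0 of the 19 had an unadjusted p under 0.05, against 0.866% of all genes tested on the higher side and 0.327% on the lower. Among them Vim, the other main intermediate filament of astrocytes, had a log2 fold change of 0.20 (SE 0.09), Serpina3n one of 0.01 (SE 0.10) and S100a10 one of -0.16 (SE 0.13). Of 8 genes of the complex that anchors endfeet to the vessel wall, 4 were above 0 and 4 below, with a median of 0.00. Among those averaging at least 100 counts, Lama2, a laminin of the basement membrane, was highest at 0.30 (SE 0.12, unadjusted p = 0.032 and adjusted p = 0.9998 by edgeR's quasi-likelihood test), and the dystrophin gene Dmd was lowest at -0.02 (SE 0.14).

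Markers of other cell types were measured in the same libraries. The 12 oligodendrocyte markers were all above 0, with a median log2 fold change of 0.19, but their summed level ranged from 8928 to 12774 CPM in NS and from 10545 to 14154 CPM in WS, and WS replicate 1, which was high for astrocyte genes, lay inside the NS range. Of the 8 precursor markers 7 were above 0, with a median of 0.12, and of the 12 microglial markers 11 were, with a median of 0.10. The median log2 ratio of the microglial markers to NS was 0.15, 0.04 and 0.14 in WS replicates 1, 2 and 3. The 15 endothelial markers were all above 0, with a median of 0.09, and 7 of the 9 pericyte markers were, with a median of 0.10. In both lists WS replicate 3 had the highest summed level, 593 and 317 CPM. Without WS replicate 3, 9 of the 15 endothelial and 6 of the 9 pericyte markers were above 0, against 51.2% of all genes tested. Their medians were then 0.04 and 0.06. The median log2 ratio of the endothelial markers to NS was 0.09, 0.00 and 0.17 in WS replicates 1, 2 and 3. Among the endothelial markers Pecam1, an adhesion molecule of endothelial junctions that is named here after its values were seen, measured 17.2, 16.3 and 19.2 CPM in NS and 22.2, 33.03 and 41.5 CPM in WS. Its log2 fold change was 0.87 (SE 0.18, unadjusted p = 0.00053 and adjusted p = 0.81 by edgeR's quasi-likelihood test), above that of each of the 33 astrocyte genes. Of the 15 neuronal markers 9 were above 0, with a median of 0.02 and summed levels from 19077 to 19239 CPM in NS and from 18261 to 20312 CPM in WS. With the GC and length trend removed, 6 of the 15 were above 0, against 50.2% of all genes tested, with a median of -0.02. The neuronal median was -0.05 without WS replicate 1 and 0.06 without WS replicate 3. Of the 7 choroid plexus markers tested 3 were above 0, with a median of -0.15, and their summed level was lowest in WS replicate 1, at 12.3 CPM against 43.5 to 122 CPM elsewhere. The part of these cell types in the values of the astrocyte genes was not tested.

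**Figure D5:**
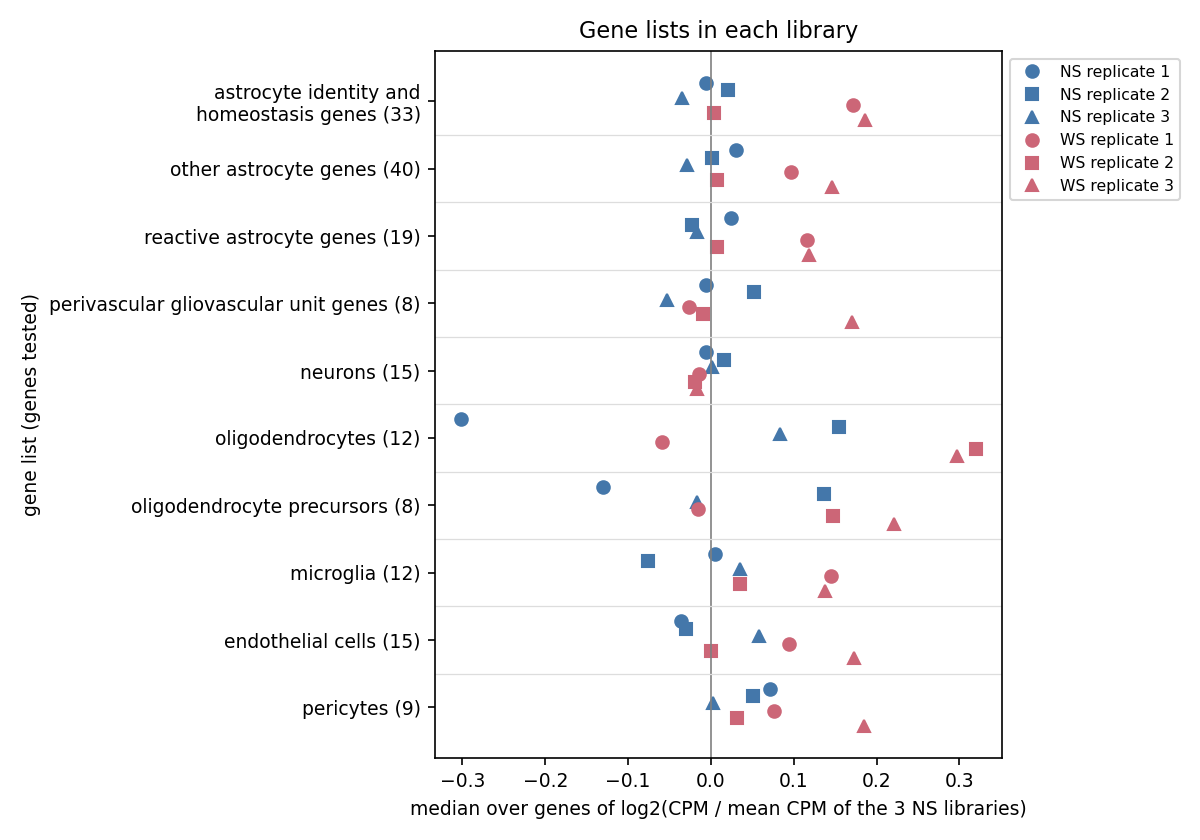
Median over the genes of each list of the log2 ratio of CPM to the NS mean, with 1 point per library (NS blue, WS red, symbol by replicate number). For the 33 astrocyte genes WS replicates 1 and 3 lie at 0.17 and 0.19 and the other 4 libraries between -0.03 and 0.02. WS replicates 1 and 3 also lie above the other 4 libraries for microglia (0.15 and 0.14) and endothelial cells (0.09 and 0.17). For oligodendrocytes WS replicate 1 lies at -0.06 and WS replicates 2 and 3 at 0.32 and 0.30.

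Promoters of the 33 genes were compared with those of all genes, from 250 bases before to 50 after the start in RefSeq on GRCm38.p6. For 28 of the 33 genes there were 36 promoters. An observed over expected CpG ratio above 0.6 was found in 25% of the 36, against 65.5% of 13977 promoters of the genes tested and 35.8% of all 32851 promoters. The letters TTCNNNGAA, to which STAT factors bind, were present on either strand in 22.2% of the 36, against 6.68% of promoters of the genes tested and 8.30% of all promoters. They occurred in Gfap, Slc1a3, Aldoc, Acsbg1, Kcnj16, Ntsr2, Pla2g7 and Prodh. TTGGC, a partial site of nuclear factor I, was present in 61.1% of the 36 against 49.4% of promoters of the genes tested, and the SOX core letters ACAAAG were present in 16.7% against 13.6% and ACAATG in 2.78% against 7.42%. CACGTG, an E-box, was present in 5.56% against 9.36%, and ACGTG, the core of the hypoxia response element, which also lies within CACGTG, in 13.9% against 24.4%. These shares describe letters in a window and are not evidence of binding.

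The promoters of the 3 genes with the smallest unadjusted p are shown. Capitals mark any match to these motifs on either strand. Slc6a11 (chr6:114130991-114131290, plus strand) had 72.3% GC and no match, Etnppl (chr3:130617198-130617497, plus strand, the first of its 2 listed starts) had 49.3% GC and no match, its second window (chr3:130617325-130617624) had 56.7% GC and a match to TTGGC, and Kcnj10 (chr1:172340960-172341259, plus strand) had 63.7% GC and matches to TTGGC and ACAAAG.
Slc6a11: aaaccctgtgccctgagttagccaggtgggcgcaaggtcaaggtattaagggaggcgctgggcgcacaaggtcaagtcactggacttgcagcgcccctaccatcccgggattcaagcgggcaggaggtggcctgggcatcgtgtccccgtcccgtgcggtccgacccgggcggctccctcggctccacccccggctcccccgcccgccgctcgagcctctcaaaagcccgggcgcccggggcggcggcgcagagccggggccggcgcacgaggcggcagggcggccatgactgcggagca
Etnppl: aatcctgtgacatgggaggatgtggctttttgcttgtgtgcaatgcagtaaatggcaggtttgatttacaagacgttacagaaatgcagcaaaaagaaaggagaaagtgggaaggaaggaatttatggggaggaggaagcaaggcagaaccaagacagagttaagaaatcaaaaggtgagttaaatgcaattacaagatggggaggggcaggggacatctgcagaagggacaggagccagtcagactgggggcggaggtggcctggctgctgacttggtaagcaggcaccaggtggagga
Kcnj10: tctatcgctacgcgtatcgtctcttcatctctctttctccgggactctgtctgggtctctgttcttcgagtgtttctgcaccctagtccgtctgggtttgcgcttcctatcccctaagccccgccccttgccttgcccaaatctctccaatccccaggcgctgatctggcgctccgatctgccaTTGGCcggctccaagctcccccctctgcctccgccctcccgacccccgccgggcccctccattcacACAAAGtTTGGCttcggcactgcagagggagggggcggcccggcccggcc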

How the data were processed

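Bulk RNA-seq of 3 NS and 3 WS samples of mouse S1 cortex was analysed. Per the methods, the authors filtered rRNA and low-quality reads, aligned the rest with HISAT2 and used FPKM values. They called differential genes with DESeq2 and an algorithm that the methods spell PossionDis. The genome build in the submitters' notes is mm10. The authors deposited, per gene, an estimated count averaged over the 6 libraries and not scaled for depth, its SD, and z-scores (scores in units of that SD) per library and per group. Their columns of fold changes and p-values were not used.

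Counts were computed as the mean plus the z-score times the SD and rounded to whole numbers. For the 33 genes, the uncertainty left by the deposited decimals was at most 2.29 counts. As a share of a gene's mean, taken separately, it was at most 0.0158%. The design had assumed counts or FPKM, and the count test was applied to these counts. WS was compared with NS with edgeR 4.0.16 (TMM, filterByExpr, quasi-likelihood test, Benjamini-Hochberg adjustment over 13747 genes) in R 4.3.3. The test was checked on simulated counts. No 2 libraries agreed within sampling noise (lowest chi-square per degree of freedom 4.29), so none was treated as a library deposited in duplicate. Counting error is smallest for genes with many counts. The replicate numbers come from the sample titles. Same-numbered libraries deviated together (r of 0.34, 0.23 and 0.12 over 13688 genes), which is a hint from the data and not a stated pairing, and the number was also fitted as a block. GC content and length came from the longest coding transcript in GENCODE M21 (GRCm38). The column for WS replicate 3 carries an added letter N in its name. It was taken as WS because the authors' mean of the WS scores includes it.

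The 33 genes were given by name, and they and the companion, marker and motif lists were chosen with earlier results of these data known. All 33 are described, and from other lists at most the 3 highest and 3 lowest log2 fold changes among genes averaging at least 100 counts, apart from genes said to be chosen after their values were seen (the striatal and thalamic genes, and Pecam1). Alternatives were other normalizations, no filter, DESeq2 1.42.0, the block, leaving out each library, and, added after seeing the data, removal of a lowess trend (span 0.3) on GC content and length. Reads and the study's other assays were not analysed here.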

Additional observations from a re-analysis of the deposited data

How the results depend on the processing

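The count of astrocyte genes with an adjusted p under 0.05 stayed at 0 in all 13 alternatives. The count with an unadjusted p under 0.05, which was 1, became 3 with DESeq2, 3 with the replicate block, 4 with the GC and length trend removed and 7 with that trend removed together with the replicate block. Leaving out 1 library at a time, it ranged from 1 to 6, all on the higher side. It was 6 when WS replicate 2 was dropped, against 0.866% of all genes tested on that side, 5 when WS replicate 1 was (2.27%), 2 when NS replicate 2 was (1.15%), and 1 for each of WS replicate 3 (2.30%), NS replicate 1 (0.649%) and NS replicate 3 (0.903%). The count of genes whose groups did not overlap, in either direction, was 3 and ranged from 4 to 17 when 1 library was left out, as fewer libraries then have to be separated. It was 17 on leaving out WS replicate 2, against 13.98% of all genes tested, 9 on leaving out NS replicate 2 (15.60%), 8 for NS replicate 1 (11.31%), 6 for NS replicate 3 (14.61%), 5 for WS replicate 3 (20.27%) and 4 for WS replicate 1 (17.29%). The median log2 fold change lay between 0.10 and 0.17 in all 13 alternatives. Of 429 single fold changes under an alternative, 418 kept their direction, and the 11 that did not were all from leaving out a library. Over these, the log2 fold changes moved as follows: Slc1a2 between -0.0807 and 0.137, Slc1a3 between -0.0318 and 0.109, Aqp4 between -0.0957 and 0.283, Kcnj16 between -0.0144 and 0.151, Slc4a4 between -0.0144 and 0.257, Gfap between -0.0217 and 0.26, Mfge8 between -0.0452 and 0.224, Itih3 between -0.00866 and 0.522 and Dio2 between -0.179 and 0.257. The negative values arose on leaving out WS replicate 3, except that Mfge8 turned on leaving out either NS replicate 3 or WS replicate 1, and Slc1a3 also did so on leaving out NS replicate 3. The cause was not tested. No block or scaling alternative turned the direction of any of the 33 genes. With 3 libraries a group, an exact permutation test of a single gene cannot go below p = 0.10, so none was run. Counting error alone was 7.86% of the count per library for Slc14a1, the gene with the fewest counts, and 0.476% for Slc1a2, the one with the most.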
